A study of Mus musculus with 30 samples.

Results

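Tyrobp, Trem2, Fcer1g, Fcgr1, Fcgr2b, Fcgr3 and Syk are 7 of the 21412 genes measured in the hippocampus of male BALB/c mice fed methylmercury (MeHg) with or without selenium. They were chosen by name as the adapters, receptors and kinase of one signalling route, with the rise of several of them in mice on the high dose already known from these libraries. Their difference between that group and its controls is therefore given as a description, and the counts of members called in it support nothing. All 7 had a sum of at least 10 normalized counts and entered every comparison. The study had 6 groups of 5 mice, with 1 library per mouse: Ctr (feed without added MeHg), LD (0.28 mg MeHg per kg feed), HD (5 mg MeHg per kg feed), and Se_Ctr, Se_LD and Se_HD, which are labelled as given selenium with no mercury, the low dose and the high dose. Ctr, LD and HD mice were obtained at 2 to 3 weeks of age, housed singly and fed a purified diet for 11 weeks, and MeHg was added as its cysteine complex, with cysteine alone in the Ctr feed. The series title names the selenium compound as selenium-methionine. The selenium level, the MeHg levels in feed and the age and time on diet of the selenium groups are not given in the sources used here.

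Tyrobp (also called DAP12) and Fcer1g are small membrane adapters whose tails carry an activation motif (ITAM). Receptors with no signalling tail of their own pair with them: Trem2, a receptor for lipids and lipoproteins, pairs with Tyrobp, and the IgG receptors encoded by Fcgr1 and Fcgr3 pair with Fcer1g, while Fcgr2b encodes the IgG receptor with an inhibitory motif (ITIM). Once phosphorylated, the activation motifs recruit the tyrosine kinase Syk, and in brain these genes are known mainly from microglia, the resident macrophages of the tissue.

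In these samples of whole tissue, fewer cells of a type and less RNA per cell cannot be told apart. Checked against the label, the summed counts of 9 hippocampal and neuronal markers, such as Prox1 and Wfs1, lay between 40256 and 68962 in every library. HD replicates 2 (40256) and 5 (43667) had the lowest sums of the 30 libraries, and HD replicate 2 also had the lowest sum of 6 oligodendrocyte markers (27012). These are the mice with the highest values of the members, and values without HD replicate 2 are given below where they differ most. The libraries held between 5768208 and 11510521 reads on genes, with a median of 9351470, and the Ctr libraries had the lowest group median (7119788). Choroid plexus markers varied most, from a summed 275 to 37600 normalized counts per library.

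The genes lie on 5 chromosomes of the NCBIM37 build. Tyrobp is at chr7:31198807-31202596, Trem2 at chr17:48485726-48493472, Fcgr1 at chr3:96086832-96098179 and Syk, which this annotation calls Sykb, at chr13:52678542-52744161. Fcer1g (chr1:173159703-173164496), Fcgr3 (chr1:172981300-172995066) and Fcgr2b (chr1:172890689-172906678) are neighbours on chromosome 1. No exon of a member overlapped an exon of another gene. Fcgr2b and Fcgr3 shared 94 stretches of 75 bases, the read length, which is 5.61% of those in Fcgr2b and 5.76% of those in Fcgr3, so that a few reads could not be told apart between them.

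Promoter windows are shown for members that differed in their response to the high dose. They are taken from RefSeq (GRCm38.p6), reach from 250 bases before to 50 bases after the start, are printed 5′ to 3′ in the direction of transcription, and were found for 6 of the 7 members, all but Tyrobp. Capitals mark AGGAAG, the core letters bound by PU.1, a transcription factor of macrophages and microglia, and the ETS-IRF composite element, which joins such a core to the letters bound by interferon regulatory factors. Both were searched on both strands, and a match may overlap another. Trem2 is at chr17:48346151-48346450 (plus strand), Fcer1g at chr1:171234300-171234599 (minus strand), Fcgr1 at chr3:96293920-96294219 (minus strand), Fcgr2b at chr1:170976022-170976321 (minus strand) and the first of 2 windows of Syk at chr13:52583187-52583486 (plus strand).
Trem2 promoter window: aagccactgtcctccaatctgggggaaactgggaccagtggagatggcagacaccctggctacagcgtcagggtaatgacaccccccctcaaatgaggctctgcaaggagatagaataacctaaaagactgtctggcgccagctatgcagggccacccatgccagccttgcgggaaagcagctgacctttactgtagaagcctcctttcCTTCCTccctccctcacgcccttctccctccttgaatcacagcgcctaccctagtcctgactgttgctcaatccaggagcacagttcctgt
Fcer1g promoter window: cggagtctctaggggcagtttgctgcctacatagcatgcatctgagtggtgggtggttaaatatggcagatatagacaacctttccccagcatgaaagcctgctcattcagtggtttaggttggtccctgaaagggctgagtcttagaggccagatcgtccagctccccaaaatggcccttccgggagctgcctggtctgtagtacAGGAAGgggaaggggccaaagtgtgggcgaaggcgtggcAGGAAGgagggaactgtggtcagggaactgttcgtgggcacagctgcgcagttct
Fcgr1 promoter window: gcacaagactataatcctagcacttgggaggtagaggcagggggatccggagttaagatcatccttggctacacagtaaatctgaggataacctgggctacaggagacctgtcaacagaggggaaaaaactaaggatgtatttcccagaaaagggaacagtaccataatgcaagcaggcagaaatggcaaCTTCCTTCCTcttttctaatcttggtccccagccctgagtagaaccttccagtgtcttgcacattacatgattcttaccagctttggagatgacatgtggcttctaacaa
Fcgr2b promoter window: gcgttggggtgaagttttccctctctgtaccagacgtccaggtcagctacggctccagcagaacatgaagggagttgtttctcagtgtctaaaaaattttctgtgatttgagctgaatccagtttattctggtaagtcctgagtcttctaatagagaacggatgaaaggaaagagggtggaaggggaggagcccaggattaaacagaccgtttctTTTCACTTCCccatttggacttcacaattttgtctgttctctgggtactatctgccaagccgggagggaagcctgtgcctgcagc
Syk promoter window: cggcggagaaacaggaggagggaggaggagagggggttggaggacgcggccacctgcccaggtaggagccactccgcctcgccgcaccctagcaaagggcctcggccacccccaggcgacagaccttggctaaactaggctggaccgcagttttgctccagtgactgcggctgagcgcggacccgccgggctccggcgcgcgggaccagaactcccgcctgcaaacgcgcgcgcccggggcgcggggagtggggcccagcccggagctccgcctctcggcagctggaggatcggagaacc

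AGGAAG was found once in the window of Trem2, at 2 places in those of Fcer1g and Fcgr1 and once in each of the 2 windows of Fcgr3, and in neither the window of Fcgr2b nor the 2 windows of Syk. The ETS-IRF composite element was found once, in the window of Fcgr2b. Of 32851 mouse promoters of the same length, 35.4% held AGGAAG and 2.72% held the composite element. The E-box CACGTG, held by 7.15% of promoters, and the antioxidant response letters TGACNNNGC, held by 12.4%, were in none of the windows. A match is a description of letters and not of a bound site.

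In Ctr mice the level per kilobase of the longest coding transcript was highest for Tyrobp, at 124 ± 25.4 normalized counts per kb (SD, n = 5), followed by Trem2 at 66.0 ± 11.9. Fcgr3 (32.01 ± 8.25), Fcer1g (28.1 ± 9.97), Fcgr1 (20.3 ± 2.17) and Fcgr2b (19.2 ± 10.0) followed, and Syk was lowest at 6.55 ± 1.33. The ranges of Tyrobp, Trem2 and Syk overlapped with those of no other member, whereas the 4 genes between Trem2 and Syk overlapped with each other.

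In the groups not labelled as given selenium, both adapters were higher with high-dose MeHg. Tyrobp was at 58.0, 76.6, 70.9, 54.1 and 89.5 normalized counts in the 5 Ctr mice and at 190, 387, 118, 173 and 402 in the 5 HD mice. Each HD mouse lay above each Ctr mouse. The fitted log2 fold change was 1.71 (SE 0.26), or 3.27-fold. This and the fitted changes below are on the scale of log2(normalized count + 1), except where edgeR is named. Folds of single mice are plain ratios of normalized counts to the control mean. Fcer1g, the partner of the IgG receptors, was at 13.3, 22.1, 29.3, 14.6 and 15.3 in Ctr mice and at 48.4, 137, 31.4, 49.8 and 82.5 in HD mice. Again no HD mouse reached down to the Ctr range, and the log2 fold change was 1.70 (SE 0.33). The ratio of Fcer1g to Tyrobp counts was 0.274 ± 0.0543 (SD, n = 5) in HD mice beside 0.275 ± 0.0897 in Ctr mice.

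The receptor that pairs with Tyrobp was also higher. Trem2 was at 90.6, 80.0, 65.2, 60.8 and 62.7 normalized counts in Ctr mice and at 90.1, 215, 102, 186 and 303 in HD mice. HD replicate 1 lay within the Ctr range and the other 4 above it, with a log2 fold change of 1.18 (SE 0.27). The ratio of Trem2 to Tyrobp counts was 0.747 ± 0.242 in HD and 1.07 ± 0.318 in Ctr mice, and the 2 groups overlapped.

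Among the IgG receptors, the activating Fcgr3, which binds IgG complexes, was at 38.6, 52.7, 56.7, 30.4 and 37.1 in Ctr and at 57.8, 149, 57.6, 63.5 and 106 in HD mice. The groups did not overlap, although 2 HD mice exceeded the highest Ctr mouse only slightly. Fcgr1, the receptor of high affinity for monomeric IgG, was at 48.3, 49.3, 53.9, 62.0 and 49.9 in Ctr and at 61.9, 213, 75.0, 69.9 and 104 in HD mice. Of the HD mice, 4 exceeded the highest Ctr mouse. The log2 fold change was 0.92 (SE 0.26) for Fcgr3 and 0.83 (SE 0.26) for Fcgr1. Without HD replicate 2 the value of Fcgr1 was 0.53.

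The inhibitory receptor had the widest spread. Fcgr2b was at 36.2, 54.4, 31.2, 18.0 and 14.1 in Ctr mice and at 37.7, 327, 38.4, 61.1 and 90.8 in HD mice. HD replicate 2 was 10.6-fold above the Ctr mean, while 2 other HD mice lay inside the Ctr range. The log2 fold change of 1.45 (SE 0.45) was 0.93 without that mouse. The ratio of inhibitory Fcgr2b to activating Fcgr3 counts was between 0.651 and 2.20 in HD mice and between 0.379 and 1.03 in Ctr mice.

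Syk, the kinase that the activating receptors recruit through their adapters, did not follow them. It was between 25.9 and 41.1 normalized counts in Ctr mice (median 38.7) and between 25.3 and 61.2 in HD mice (median 37.8), and the ranges overlapped, with HD replicates 2 and 5 above all Ctr mice and 1 HD mouse below them. The log2 fold change was 0.18 (SE 0.24), with a 95% confidence interval from -0.31 to 0.68, and lay between 0.03 (without HD replicate 2) and 0.34 (without HD replicate 3) with each mouse left out in turn. The ratio of Syk to Tyrobp counts was 0.177 ± 0.0389 in HD mice, between 0.129 and 0.219, and 0.514 ± 0.124 in Ctr mice, between 0.378 and 0.708, so that the groups did not overlap.

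In the study's order of tests, a gene was counted as higher when its unadjusted limma p was under 0.05 both in the contrast and in the F test that compares the 3 groups. By that count 6 of the 7 members were higher in HD than in Ctr mice, against 3.36% of all 20031 genes tested. For 3 members (Tyrobp, Fcer1g and Fcgr3) the lowest HD mouse exceeded the highest Ctr mouse, against 0.978% of genes, and for 2 (Tyrobp and Fcer1g) the adjusted p was under 0.05, against 0.13% of genes. The members were chosen with this contrast known, and nothing is read from these counts. Their median log2 fold change was 1.18, beside 0.01 over all genes.

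**Figure D1:**
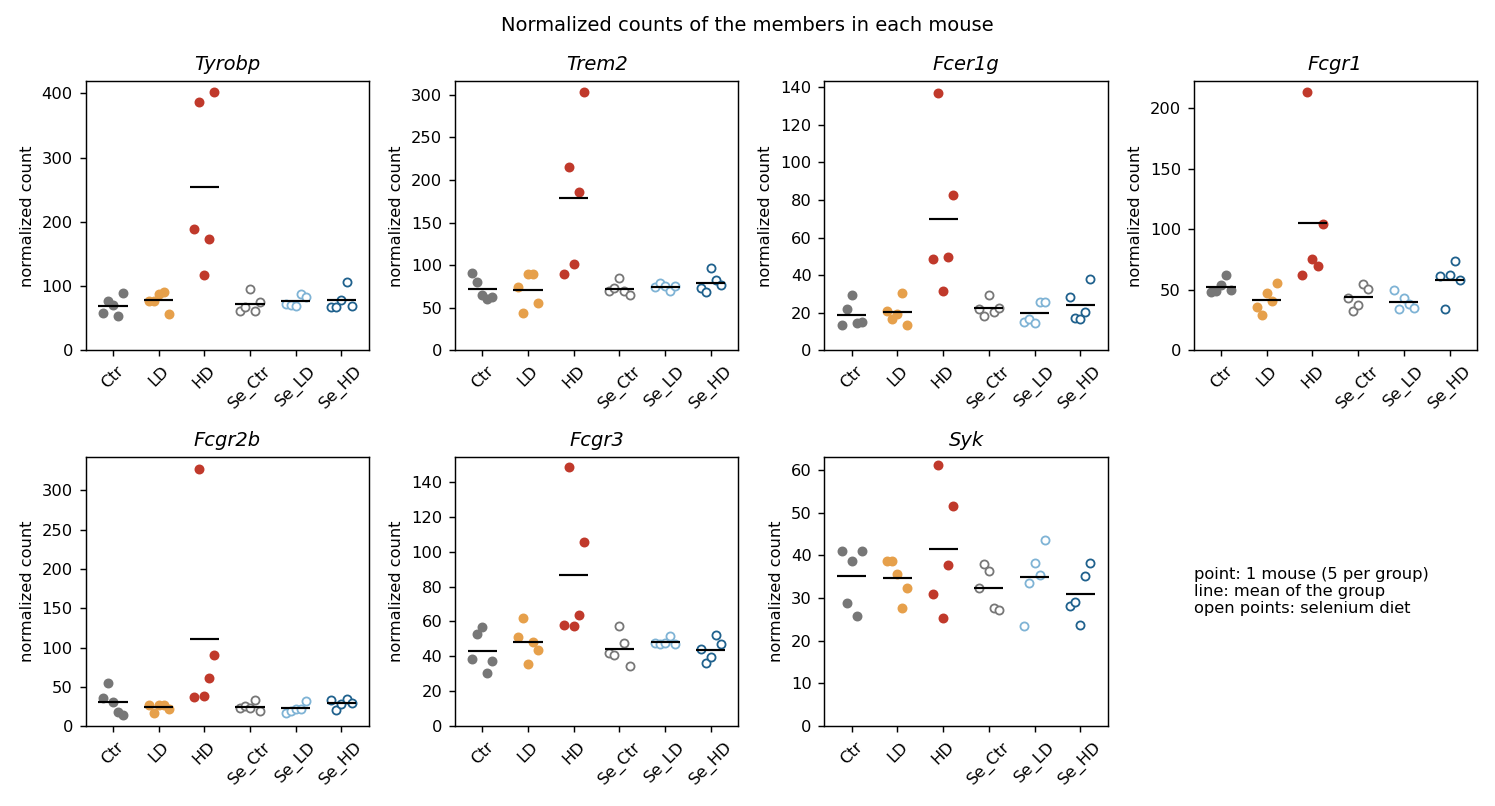
Normalized counts (linear axis from 0) of each member in each of the 30 mice, by group, with the group mean as a line and selenium diets as open points. The HD mean is the highest of the 6 for each member, least so for Syk, and single HD mice lie within the Ctr range for Trem2, Fcgr1, Fcgr2b and Syk, with Tyrobp at 118 to 402 in HD mice and 54.1 to 89.5 in Ctr mice.

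The HD mice kept a similar order over the members. HD replicate 2 had the highest value of the 5 mice for 5 of the 7 members and the second highest for the other 2. HD replicate 5 was highest for those 2, Tyrobp and Trem2, and second for the rest. HD replicate 3 was lowest for 4 members, and its Tyrobp was 1.69-fold above the Ctr mean, beside 5.75-fold in HD replicate 5. Across the 30 libraries, with the mean of each group subtracted, the 21 pairs of members had a Pearson r of log2 values between 0.20 (Fcgr1 and Syk) and 0.72 (Fcgr2b and Fcgr3), all positive. Over the 25 libraries without HD mice r was between -0.39 and 0.53. These are descriptions, since the genes of a pair share libraries, depth and tissue sampling.

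**Figure D2:**
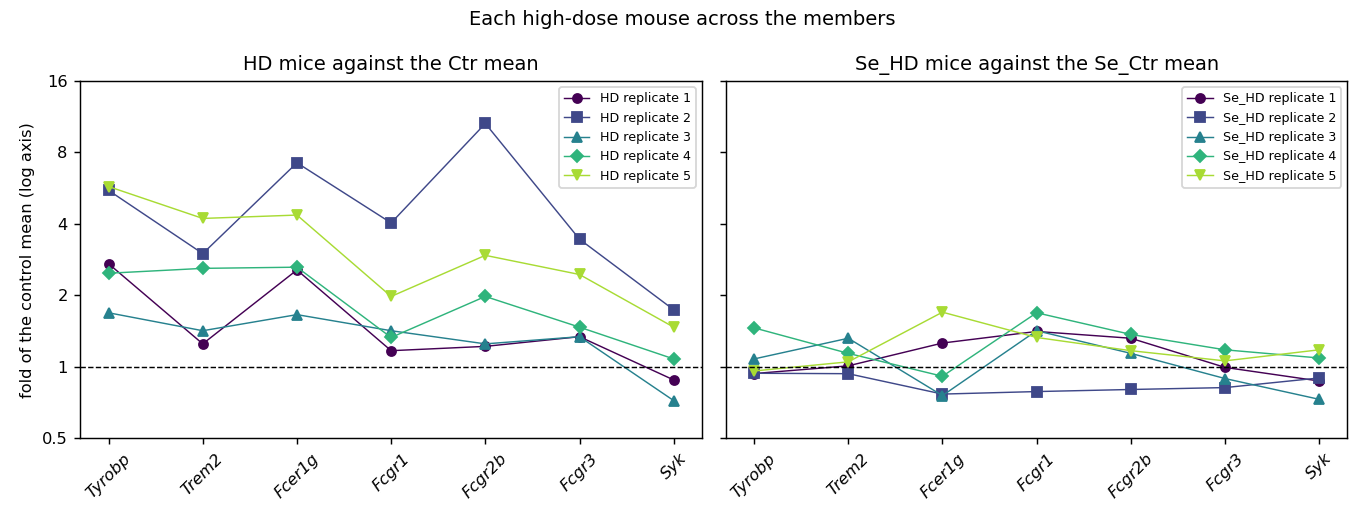
Fold of each HD mouse over the Ctr mean (left) and of each Se_HD mouse over the Se_Ctr mean (right) for each member, on a log axis, with 1 line per mouse. HD replicates 2 and 5 lie above the other HD mice for every member, up to 10.6-fold for Fcgr2b, and the Se_HD mice lie on both sides of the control mean (dashed), with Se_HD replicate 2 below it for all 7 members.

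The low dose was compared with the same Ctr mice. Tyrobp was between 57.2 and 91.0 normalized counts in LD mice, Trem2 between 43.8 and 90.0, and Fcer1g between 13.7 and 30.6. Each of these ranges overlapped with that of Ctr. Fcgr1 was at 41.8 ± 10.3 (SD, n = 5) in LD and 52.7 ± 5.61 in Ctr mice, with 4 LD mice below all Ctr mice and a log2 fold change of -0.35 (95% confidence interval -0.90 to 0.19). None of the 7 members was called in LD against Ctr, by either threshold, beside 1.46% of all genes by the unadjusted count. With an unadjusted p under 0.05 in the contrast alone the number was also 0, beside 3.01% of genes. The median log2 fold change of the members was -0.01. For Tyrobp the interval of the LD difference was -0.39 to 0.71, which bounds the change that these 5 mice per group could have missed.

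HD mice also stood above LD mice. All 5 HD mice lay above all 5 LD mice for Tyrobp, Trem2, Fcer1g, Fcgr1 and Fcgr2b, as was the case for 0.869% of all genes, and 3 HD mice did so for Fcgr3. The log2 fold change was 1.55 for Tyrobp, 1.60 for Fcer1g, 1.24 for Trem2, 1.65 for Fcgr2b, 1.18 for Fcgr1 and 0.75 for Fcgr3. By the unadjusted count 6 of 7 members were higher, beside 3.04% of genes, and 1 member, Tyrobp, had an adjusted p under 0.05 (0.0249 in limma), beside 0.0499% of genes. The HD mice are those with which the members were chosen, so the comparison is no independent check.

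On the selenium diet the rise of the members with the high dose was not seen. This comparison uses no Ctr or HD mouse, but its results too were known when the members were chosen, so it is no independent check of them. Tyrobp was at 61.7, 68.3, 94.9, 60.9 and 76.1 normalized counts in the 5 Se_Ctr mice and at 67.8, 68.1, 78.4, 106 and 69.6 in the 5 Se_HD mice. The ranges overlapped, and the log2 fold change was 0.10 (95% confidence interval -0.21 to 0.41, unadjusted p = 0.494 in limma). Trem2 was at 69.3, 73.5, 85.6, 69.9 and 65.4 in Se_Ctr and at 73.2, 68.1, 96.3, 83.1 and 76.3 in Se_HD mice. Its log2 fold change was 0.12 (-0.12 to 0.37), an interval that reaches 1.29-fold at most. Fcer1g was at 21.8, 18.2, 29.3, 20.6 and 22.3 in Se_Ctr and at 28.2, 17.3, 17.0, 20.5 and 38.2 in Se_HD mice. The Se_HD mice lay on both sides of the Se_Ctr range, with a log2 fold change of 0.05 (-0.46 to 0.57).

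None of the IgG receptors was called in this comparison in limma, and no test compared them with each other. Fcgr1 was at 43.7, 32.8, 37.5, 54.7 and 50.5 in Se_Ctr and at 61.8, 34.5, 62.3, 74.0 and 58.4 in Se_HD mice. Of the Se_HD mice 4 lay above all Se_Ctr mice and replicate 2 was within their range, and the log2 fold change was 0.38 (-0.02 to 0.79, unadjusted p = 0.0618 in limma). Fcgr2b was between 19.0 and 33.2 in Se_Ctr and between 20.0 and 34.1 in Se_HD mice, and Fcgr3 between 34.7 and 57.4 and between 36.3 and 52.4. Both overlapped, with log2 fold changes of 0.21 (-0.23 to 0.65) and -0.01 (-0.32 to 0.31). Syk had a log2 fold change of -0.07 (-0.47 to 0.32).

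No member was called in Se_HD against Se_Ctr, by either threshold, beside 2.06% of all 19679 genes by the unadjusted count, and 0 members had an unadjusted p under 0.05 in the contrast alone, beside 4.19% of genes. DESeq2 also called 0 and edgeR called 1, Fcgr1 (log2 fold change 0.40, unadjusted p = 0.0462). Fcgr1 was likewise called in the fit blocked by library set (6 mice numbered in a row, 1 per group), and when Se_HD replicate 2, Se_Ctr replicate 4 or Se_Ctr replicate 5 was left out. The median log2 fold change of the 7 members was 0.10, beside -0.01 over all genes.

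In Se_LD against Se_Ctr no member was called either, beside 1.46% of genes, by the unadjusted count, and the log2 fold changes lay between -0.21 (Fcer1g) and 0.13 (Fcgr3). In Se_HD against Se_LD 1 member of 7 was called, Fcgr1, beside 1.2% of genes called as higher. It was at 49.6, 34.3, 43.5, 38.4 and 35.2 in Se_LD mice, and 4 of the Se_HD mice lay above all of these. The log2 fold change of 0.49 (0.09 to 0.90) had an unadjusted p of 0.0188 and an adjusted p of 0.947 in limma, and the call was lost without any one of 10 of the 15 mice.

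**Figure D3:**
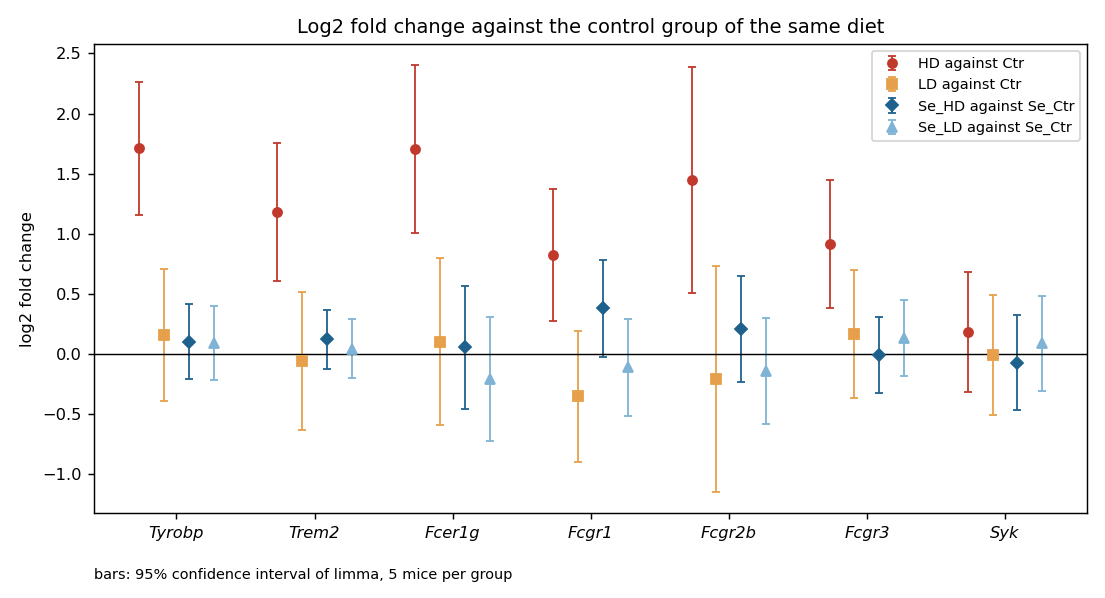
Log2 fold change of each member against the control group of the same diet, with 95% confidence intervals from limma (5 mice per group). The HD values lie between 0.18 (Syk) and 1.71 (Tyrobp), and the intervals of LD, Se_LD and Se_HD include 0 for every member.

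With selenium and no mercury no member passed the test. Between Se_Ctr and Ctr mice the log2 fold changes were between -0.28 (Fcgr1) and 0.28 (Fcer1g), with 0 members called, beside 4% of all 21383 genes. The same held at the low dose, where the differences between Se_LD and LD were between -0.09 and 0.13 with 0 members called, beside 2.86% of genes. In both comparisons 0 members had an adjusted p under 0.05.

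At the dose labelled high, the members were lower in Se_HD than in HD mice. The MeHg level in feed, the age and the time on diet of Se_HD mice are not given, so selenium and exposure cannot be told apart. Tyrobp was 0.341-fold in Se_HD relative to HD mice (log2 fold change -1.55, SE 0.23, adjusted p = 0.000557 in limma), with each Se_HD mouse below each HD mouse. Fcer1g was 0.386-fold (-1.37, SE 0.30, adjusted p = 0.0304 in limma) and Trem2 0.489-fold (-1.03, SE 0.22, adjusted p = 0.0245 in limma), each with 4 Se_HD mice below all HD mice. Fcgr2b (-1.40), Fcgr3 (-0.87) and Fcgr1 (-0.72) were lower by the unadjusted p only, and Syk had a difference of -0.36 (-0.79 to 0.08). Thus 6 of 7 members were called as lower, beside 5.28% of genes, and 3 had an adjusted p under 0.05, beside 0.327% of genes. Each Se_HD mouse also lay below all HD mice for Fcgr2b and Fcgr3, as 3 did for Fcgr1 and 1 for Syk. The share of all genes with such a separation was not computed. Without HD replicate 2 the difference was -0.88 for Fcgr2b and -0.43 for Fcgr1. These values rest on the HD mice that led to the choice of the members.

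The difference between the diets in the effect of the high dose was tested as an interaction over all 30 libraries. It was -1.61 (SE 0.32) for Tyrobp, -1.65 (SE 0.43) for Fcer1g and -1.06 (SE 0.31) for Trem2 on the log2 scale. Fcgr2b had a value of -1.24 (SE 0.53) and Fcgr3 of -0.93 (SE 0.30), whereas Fcgr1 (-0.44, SE 0.34) and Syk (-0.26, SE 0.30) did not pass the test. By unadjusted p 5 of 7 members were called as lower, beside 2.96% of genes, and 0 had an adjusted p under 0.05. The lowest adjusted p among the members was 0.121 in limma, for Tyrobp, and the lowest over all genes 0.108. Without HD replicate 2 the values of Fcgr1 and Syk were -0.15 and -0.10, and that of Fcgr2b was -0.72 and no longer passed (unadjusted p = 0.0872 in limma), and its call was also lost without Ctr replicate 4, Ctr replicate 5 or Se_HD replicate 2. The HD mice enter here too, so that the size of these values is partly set by how the members were chosen. The exposure of the selenium groups is not given, so that selenium and exposure cannot be told apart here either. The interaction at the low dose was called for 0 members, beside 3.75% of genes.

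Homeostatic markers of microglia moved with the members. Of 12 such markers 9 were higher in HD than in Ctr mice and 0 lower, beside 3.36% of all genes called as higher, with a median log2 fold change of 0.68 beside 0.01 over all genes. Their summed level was between 3490 and 6368 normalized counts in HD mice and between 2826 and 3178 in Ctr mice, with no overlap. It was between 3023 and 3525 in Se_HD mice and between 2710 and 3579 in Se_Ctr mice. The 2 HD mice with the highest sums were replicates 2 (6368) and 5 (6177), the mice with the highest member values. In Se_HD against Se_Ctr 1 of the 12 markers was higher, beside 2.06% of all genes called in either direction, and the median was 0.06.

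Set against these markers, the members differed. Per 1000 marker counts, Tyrobp was at 50.2 ± 13.7 (SD, n = 5) in HD and 23.5 ± 5.23 in Ctr mice, and the HD range of 33.8 to 65.0 lay above the Ctr range of 18.2 to 31.1. Fcer1g was at 13.7 ± 4.77 and 6.39 ± 2.42, and Trem2 at 35.7 ± 9.54 and 24.0 ± 3.64, with overlapping ranges for both. The mean ratio of these 3 genes to the markers was higher in HD mice, and the ranges were separate for Tyrobp alone. Fcgr1 (20.9 ± 7.37 in HD, 17.7 ± 2.22 in Ctr) and Fcgr3 (17.4 ± 3.50 in HD, 14.5 ± 3.86 in Ctr) differed by less than the SD within the HD group. Fcgr2b was at 20.2 ± 17.5 and 10.2 ± 4.92, with HD replicate 2 at 51.4 and the other HD mice inside the Ctr range. Syk was at 8.44 ± 0.845 in HD and 11.8 ± 2.71 in Ctr mice. No test was run on these ratios, and the part of the marker sum in the members' levels was not tested.

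**Figure D4:**
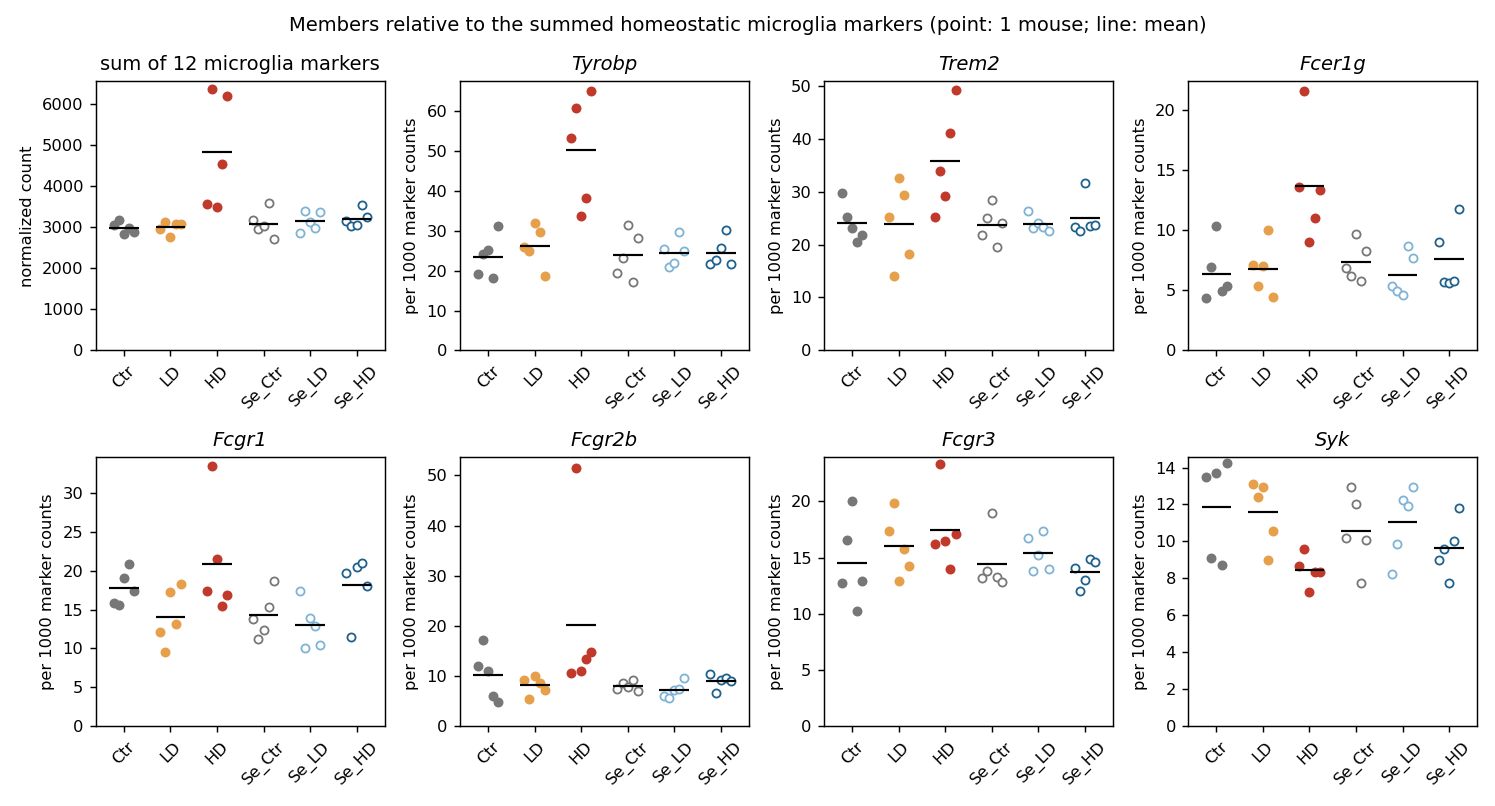
Summed normalized counts of 12 homeostatic microglia markers (first panel) and each member per 1000 of these marker counts, by group, with 1 point per mouse and the mean as a line. Tyrobp is at 33.8 to 65.0 in HD mice and 18.2 to 31.1 in Ctr mice, while Syk is at 8.44 in the mean of HD and 11.8 in that of Ctr.

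Markers of the blood and border cells that can carry these receptors, and of other cells of the tissue, were read in the same way. The 7 perivascular macrophage markers summed to between 52.5 and 127 normalized counts in HD and between 56.8 and 131 in Ctr mice. The medians of these sums were 112 and 61.4, and 0 of 7 markers were called. The 10 measured monocyte and neutrophil markers summed to between 30.5 and 82.8 in HD and between 28.1 and 41.1 in Ctr mice, with medians of 56.3 and 33.8, and 0 of the 7 tested were called. In Se_HD against Se_Ctr 1 of 8 was called, Ccr2, a receptor of monocytes, beside 2.06% of all genes. It was at 8.09 ± 2.80 (SD, n = 5) in Se_HD and 3.38 ± 2.46 in Se_Ctr mice (log2 fold change 1.28, SE 0.52, unadjusted p = 0.0242 and adjusted p = 1.0 in limma). Ccr2 was at 7.53 ± 8.17 in HD and 4.34 ± 1.02 in Ctr mice. Cd177 and Plac8 of the same list were below 2 normalized counts in the mean of Ctr, HD, Se_Ctr and Se_HD. Of 7 B cell markers 2 were in the table, of which Cd79a (4.46 in HD, 2.42 in Ctr) was tested and not called. Of 10 T and NK cell markers 3 were in the table and 0 were called, and 0 of 7 mast cell markers were called. Choroid plexus markers summed to between 6982 and 29250 in HD and between 814 and 31136 in Ctr mice, with medians of 27009 and 10857. Their log2 fold changes were between 0.56 and 1.79 (median 1.42, beside 1.18 for the members), and 0 of 8 were called. HD replicate 5, the mouse with the highest Tyrobp and Trem2, had the lowest choroid plexus sum of the HD mice (6982). The median of these 8 markers was 0.75 in Se_HD against Se_Ctr. Of 7 astrocyte markers 2 were higher in HD than in Ctr mice, beside 3.36% of all genes, Aqp4 (0.97, SE 0.31) and Aldh1l1 (0.49, SE 0.20), with a median of 0.22 and summed counts of 54204 ± 2618 (SD, n = 5) and 47711 ± 3739. In Se_HD against HD 3 of the 7 were lower, beside 5.28% of all genes, and in Se_HD against Se_Ctr 0 were called. The part of these cells in the members' levels was not tested.

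Genes around the members were read from 4 lists of the pathway, which were compiled with earlier results of these data known. Over all genes, 3.36% were called as higher and 1.73% as lower in HD against Ctr. One list held other receptors and adapters of this signalling route and of routes linked to it. Of its 15 tested genes, 5 were higher in HD than in Ctr mice and 0 lower, with a median log2 fold change of 0.74. Clec7a, a receptor for fungal glucans, was at 46.0 ± 37.6 (SD, n = 5) normalized counts in HD and 5.22 ± 4.92 in Ctr mice, with a fitted log2 difference of 2.61 (SE 0.68). Clec5a, a lectin receptor that pairs with Tyrobp, had a log2 fold change of 1.89 (SE 0.34) and an adjusted p of 0.024 in limma. Itgam and Itgb2, the chains of complement receptor 3, had values of 1.09 and 1.31, and Csf1r, the receptor for Csf1 and Il34, of 0.74 (adjusted p = 0.0497 in limma). Csf1r and Siglech are also among the microglia markers. On the selenium diet 0 of the 11 tested genes of this list were called, and Clec5a had a log2 fold change of -0.15 (SE 0.27), with an interaction of -2.04 (SE 0.44).

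Downstream of Syk, 10 of 41 effectors were higher in HD than in Ctr mice (3.36% of all genes) and 2 were lower (1.73% of all genes), with a median log2 fold change of 0.29. The 3 named by rule as higher were Btk, a kinase activated downstream of Syk (1.18, SE 0.39), Dock2, an activator of Rac (1.08, SE 0.36), and Nckap1l, a subunit of the actin-regulating WAVE complex of blood cells (0.90, SE 0.21). Prkcb, a protein kinase C that neurons also express, was lower (-0.30, SE 0.10). The adjusted p of these 4 genes lay between 0.114 and 0.335 in limma. The calls of Btk (0.97) and Dock2 (0.80) were lost without HD replicate 2, and that of Btk (1.00) also without HD replicate 5, in each case through the F test of the 3 groups, while the p of the contrast stayed under 0.05. In Se_HD against Se_Ctr 0 of 41 were called and the median was -0.02. The 4 genes of this list with the lowest p there were Dock2, with a log2 fold change of -0.33 (SE 0.21), and Tec, Pik3ap1 and Pik3r1, with values of 0.35 (SE 0.24), 0.31 (SE 0.21) and 0.10 (SE 0.07).

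The list compiled as the inhibitory arm held 35 genes for inhibitory receptors and for phosphatases and ligases that act on the signal. Of these, 11 were higher in HD than in Ctr mice, 0 were lower and 24 were not called, with a median of 0.36. A rise in this list is not read as more inhibition, since not all of its genes only restrain the signal. Ptprc, which encodes the CD45 phosphatase of blood cells and microglia, rose by 1.32 (SE 0.35), Ptpn6, the SHP-1 phosphatase, by 1.03 (SE 0.32), Lair1, a collagen receptor, by 0.76 (SE 0.21), and Cd33, a sialic acid receptor, by 0.69 (SE 0.23). These calls rest on unadjusted p, and 0 genes of the list had an adjusted p under 0.05. In Se_HD against Se_Ctr 0 of 35 were called and the median was 0.01. Cbl, the ligase that marks Syk for degradation, had -0.72 (SE 0.38) there, and Csk and Inppl1 had values of 0.18 each.

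Among 15 tested ligands and shedding genes 5 were higher in HD than in Ctr mice and 0 lower, with a median of 0.50. Apoe and Clu, apolipoproteins that Trem2 binds and that astrocytes mainly make, were at 14524 ± 2896 and 9287 ± 1284 normalized counts in HD mice and 10268 ± 1142 and 6174 ± 721 in Ctr mice. Csf1, a growth factor for microglia, and Anxa5 had log2 fold changes of 0.50 and 0.48, which were 0.32 and 0.29 without HD replicate 2. Fcrls, an Fc receptor-like gene of microglia, had a value of 1.48 (SE 0.42). On the selenium diet Clu was the one gene of 16 called, beside 2.06% of all genes. It was at 6864 ± 404 in Se_HD and 6107 ± 219 in Se_Ctr mice (log2 fold change 0.17, SE 0.06, unadjusted p = 0.012 and adjusted p = 1.0 in limma). That call was lost without any one of Se_Ctr replicates 2 to 5 or Se_HD replicate 4, with values between 0.13 and 0.17, again through the F test alone. The interaction of Clu was -0.42 (SE 0.13).

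Read against the 3.36% of all genes called as higher in HD, the share of called genes was larger in each of the 4 lists, and no test was run on a list as a whole. In the interaction at the high dose, 6 genes of each of the 4 lists were called as lower, of 16, 41, 35 and 16 tested, beside 2.96% of all genes.

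**Figure D5:**
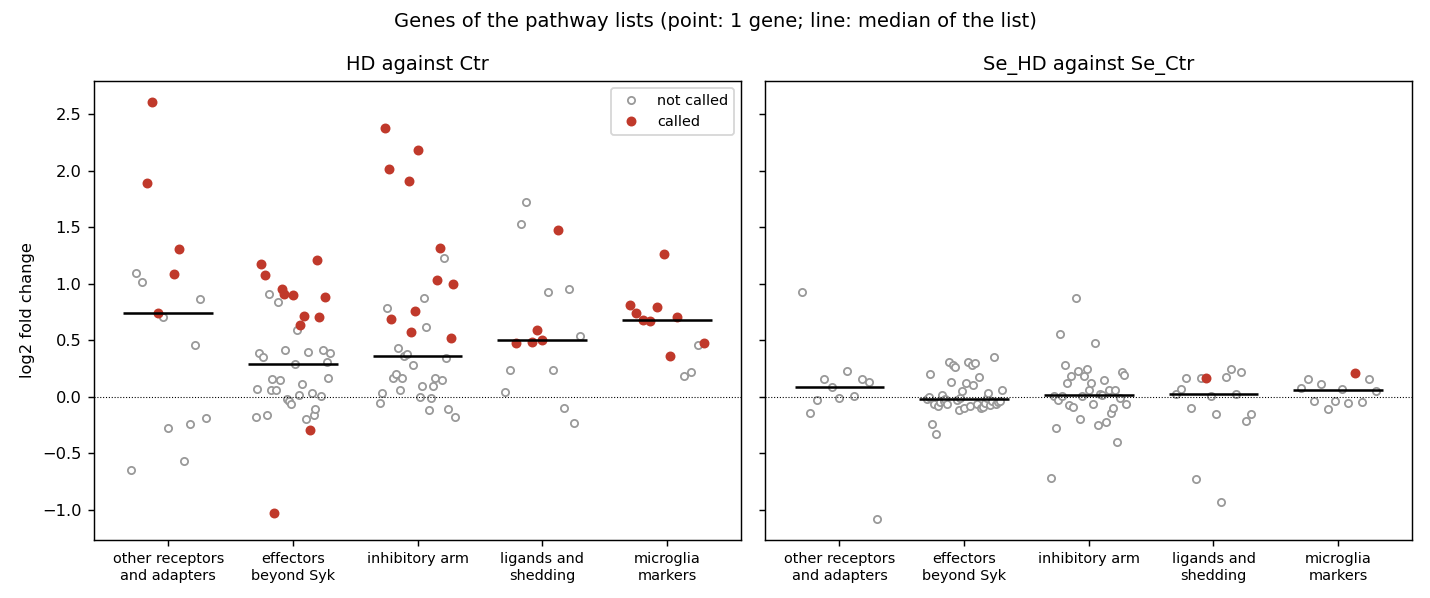
Log2 fold change of each tested gene of the 4 pathway lists and of the 12 microglia markers, in HD against Ctr (left) and Se_HD against Se_Ctr (right), with the list median as a line and called genes filled. The medians lie between 0.29 and 0.74 in HD against Ctr and between -0.02 and 0.08 in Se_HD against Se_Ctr.

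The genes whose levels were most like those of the members were found over the 30 libraries, after the mean of each group was subtracted, among the 14296 genes whose mean reached 10 normalized counts. For Tyrobp these were Ly86 (Pearson r = 0.84), Grn (0.83) and B2m (0.81), and for Trem2 Pld4 (0.79), Gnai2 (0.77) and Grn (0.76). Fcer1g was closest to Ly6a (0.74), Skap2 (0.73) and Bin2 (0.73), and Fcgr3 to Olfml3 (0.81), Lcp1 (0.81) and B2m (0.80). Fcgr1 was closest to Ptgs1 (0.82), Trim30a (0.80) and Pros1 (0.80), Fcgr2b to Plin2 (0.86), Il13ra1 (0.83) and Vwa5a (0.83), and Syk to Axl (0.77), Scpep1 (0.75) and Galntl2 (0.75). Over the 25 libraries without HD mice, 2 of these 21 entries were again among the 3 closest to the same member. These were Plin2 for Fcgr2b (0.70) and Scpep1 for Syk (0.72). The other 19 entries did not recur, and all values share libraries and depth.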

How the data were processed

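Hippocampus RNA of 30 mice was sequenced as single-end libraries by the authors. Per the labels and the study's methods, they trimmed reads with Trim Galore 0.4.2, aligned them to NCBIM37 with HISAT2, counted them per gene with featureCounts, removed genes with a row sum under 10 and divided the counts by DESeq2 size factors, and these normalized signal values are what was deposited. All values were whole reads (tolerance 0.1) times one factor per library, except that for 1 library the step lies too near 1 for the unit check, so reads were recovered for edgeR 4.0.16 and DESeq2 1.42.0 as alternatives. Log2(value + 1) was fitted with limma 3.58.1 (R 4.3.3) with a variance trend, over Ctr, LD and HD, over the selenium groups, and over all 30 libraries for comparisons between diets, in genes with a sum of at least 10. A gene was called at unadjusted p under 0.05 in both the contrast and the F test of its 3 groups, or in the contrast alone between diets. Adjusted p-values were computed by the Benjamini-Hochberg method across every gene of the fit. Data were simulated for HD against Ctr, with the same spread of a gene in every group. Of 14360 genes with a mean of at least 10, fewer than the 20031 of the reported fit, 200 were changed by 1 on the log2 scale. Limma at adjusted p under 0.05 recovered 182 of these, with 8 false calls. The members spread more in HD than in Ctr mice (for Tyrobp an SD of 51.7% and 20.5% of the mean), so this recovery does not apply to them.

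The members, gene lists and markers were chosen with earlier results of these data known. Beside the members, the text names genes of a list from the 4 with the lowest p in HD against Ctr and the 4 with the lowest in Se_HD against Se_Ctr, at a mean of at least 10, and the 3 genes most like each member. Replicates are separate mice, numbered in the order of deposition. Alternatives were pseudocounts of 0.1 and 10, other filters, quantile normalization, the set of 6 consecutive library numbers as covariate, limma without trend, an ordinary per-gene model, one fit of all libraries, edgeR, DESeq2, calls without the F test or by adjusted p, and leaving out each mouse. Symbols were found for 21326 of 21412 identifiers. Tables were handled with pandas 2.3.3 in Python 3.11.15.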

Additional observations from a re-analysis of the deposited data

Results flagged for a closer look

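Among the 42 groups of 5 mice (7 members in 6 groups) 4 held a mouse far from the other 4 by Dixon's ratio of its gap to the range of the group, and chance alone gives such a mouse in about 1 in 20 groups. Fcgr2b in HD replicate 2 had a ratio of 0.816 and Fcgr1 in the same mouse a ratio of 0.720. Tyrobp in Se_HD replicate 4 (106 normalized counts, the other 4 Se_HD mice being between 67.8 and 78.4) had a ratio of 0.723. Fcgr3 in Se_LD replicate 4 had a ratio of 0.796, at 51.7 normalized counts in a group that otherwise spanned 46.8 to 47.8. The critical value for 5 mice is 0.71.

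The effect of the high dose differed between the diets by the interaction term at unadjusted p for 5 members: Tyrobp (-1.61), Fcer1g (-1.65), Fcgr2b (-1.24), Trem2 (-1.06) and Fcgr3 (-0.93), each in the direction of a smaller effect on the selenium diet, beside 2.96% of all genes called as lower. None of the 5 had an adjusted p under 0.05 in limma, the lowest being 0.121, and the HD mice are those with which the members were chosen.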

How the results depend on the processing

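No member changed its direction past the threshold under any alternative run. Called by adjusted p, 2 members passed in HD against Ctr, 1 in HD against LD, 3 in Se_HD against HD, 0 in Se_HD against Se_LD and 0 in the interaction at the high dose. In Se_HD against Se_Ctr the number called was 1, Fcgr1, with the library set as covariate and with edgeR, and between 0 and 1 with each mouse left out in turn. In Se_HD against Se_LD it was 0 with quantile normalization, with all 30 libraries in one fit, without the variance trend and with the ordinary per-gene model, and between 0 and 1 with each mouse left out. With each mouse left out, 6 members were called in HD against Ctr and in HD against LD, between 6 and 7 in Se_HD against HD and between 4 and 5 in the interaction at the high dose. The cause of these shifts was not tested. The labels give the groups no shared replicate numbers. The 5 sets of 6 consecutive library numbers each held 1 mouse of every group, and the fit with the set as covariate is a blocked one, though no source used here says that a set is a batch. It changed no call of a member other than Fcgr1 in Se_HD against Se_Ctr. Depth limits the lowest members most: Fcer1g rested on 11 to 31 reads in Ctr libraries, and Fcgr2b on 11 to 33.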

Other observations

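The genes of the inhibitory list with the largest log2 fold changes in HD against Ctr were chosen here after their values were seen, since their means are under the level set for named genes. They were Cd22 (2.38, SE 0.62), a sialic acid receptor known from B cells and microglia, Lilrb4 (2.18, SE 0.66), Cd300lf (2.02, SE 0.63) and Gp49a (1.91, SE 0.61). Lilrb4 was between 2.62 and 49.8 normalized counts in HD mice and between 0 and 5.10 in Ctr mice, and Cd22 between 0 and 15.5 in HD and between 0 and 1.28 in Ctr mice, so that the groups overlapped for both. In Se_HD against Se_Ctr their log2 fold changes were 0.06 for Lilrb4 and -0.28 for Cd22, and neither was called. Lilrb4 and Gp49a are near-identical neighbours, and reads may be split between them.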
